A study of Mus musculus with 77 samples.

Results

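Of the 77 CUT&RUN libraries of the series, 6 are described here, the H2AK119Ub libraries from wild-type mb1-cre mice. They comprise 3 libraries of cells stimulated for 24 h and 3 libraries of naive cells (0 h), taken by their titles. The cells were CD23+ splenic B cells of female mice, a gate that holds mostly follicular B cells. The 24 h group was cultured with 1 µM CpG, and the 0 h group was processed without culture, so stimulation and time in culture cannot be told apart. Both groups carry mb1-cre, which expresses Cre recombinase in the B lineage, and a wild-type Xist gene. A further 2 pairs of groups serve as a setting for the result. One is mb1-cre Xist fl/fl, in which the floxed Xist gene is recombined in B lineage cells, at 24 h and 0 h. The other is TAT-Cre WT, whose cells received 80 µg of cell-permeable Cre protein for 45 min before CpG in the 24 h group, with untreated cells at 0 h. Each of these 4 groups had 3 H2AK119Ub libraries. The test of genes also used the TAT-Cre Xist KO libraries, 3 at 24 h and 3 at 0 h, treated as those of TAT-Cre WT. They entered its filter and its estimate of the spread, and their own values are not described. The labels call replicates biological but do not tie them to separate animals, so the p-values cover no more than the scatter among these libraries.

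H2AK119Ub is a single ubiquitin on a lysine in the tail of histone H2A. It is written by the Polycomb repressive complex PRC1, through its RING1A or RING1B subunit, and removed by the BAP1 deubiquitinase. PRC2, which writes H3K27me3, can bind H2AK119Ub, and variant PRC1 complexes find unmethylated CpG islands through the KDM2B protein, so both marks often lie over silent developmental genes. On the inactive X chromosome of female cells Xist RNA recruits PRC1 through PCGF3 and PCGF5 complexes. Lymphocytes are known for a loose association of Xist RNA with the inactive X at rest, which tightens on stimulation. CpG oligonucleotides are ligands of TLR9, a receptor in endosomes that drives B cells into the cell cycle. CUT&RUN releases the DNA around an antibody-bound mark with a tethered nuclease. The peak lists hold the positions and signal of the enriched regions, not of single nucleosomes. In bulk cells, fewer cells with the mark and less mark per cell cannot be told apart.

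The 24 h lists held 14806, 32632 and 20742 peaks, and the 0 h lists held 2179, 40688 and 2804. List length therefore differed most within the 0 h group, where replicate 2 was the longest of the 6 lists and replicates 1 and 3 the shortest. The deposited peaks covered 143.8, 156.6 and 172.6 Mb at 24 h and 41.1, 204.5 and 48.7 Mb at 0 h. On a log2 scale the peak number differed by 1.78 ± 1.39 (SE of the difference, 24 h minus 0 h, n = 3 each; exact two-sided permutation p = 0.4; the smallest p that 3 against 3 libraries can give is 0.1). For this reason every list was cut to its strongest peaks by total signal before comparison, 2169 peaks where the 6 libraries were compared with each other and 1999 where other groups entered. Cut in this way, the median peak was 19611, 13817 and 20095 bp wide at 24 h and 14536, 17716 and 14922 bp at 0 h. A peak's place in its list, 1 being the strongest, is a rank within that library. "Higher" and "lower" below refer to that rank, and a gene outside the strongest peaks may still have a weaker deposited peak. All 7 B cell markers had an H3K27ac peak in each of the 6 mb1-cre WT H3K27ac libraries (3 per time). Of the defining markers of other cells, T cell markers had an H3K27ac peak in 2 of 6 genes at either time, myeloid markers in 1 of 5 at 24 h and 0 of 5 at 0 h, and NK markers in 1 of 3 at 24 h and 0 of 3 at 0 h. Erythroid markers had none of 3 at either time.

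The strongest H2AK119Ub peaks lay over partly different genes after 24 h of CpG. Among 4019 genes tested, 692 were higher at 24 h (17.2%) and 493 were lower (12.3%) by limma with a Benjamini-Hochberg adjusted p under 0.05. Because one broad peak often covers several genes, these are 446 higher and 370 lower loci. The score of a gene was log2 of 2000 over the place of the strongest peak touching it, flanks of 2 kb included, and 0 where none of the 1999 strongest did. A gene at 0 in all 3 libraries of 1 time could therefore differ in 1 direction only. Over all tested genes the median score difference was 0.22. The 2169 strongest peaks touched 3859, 3253 and 3939 genes at 24 h and 2773, 2974 and 2848 at 0 h. With quantile-normalised scores this median was 0.01, and the split turned to 393 higher (9.78%) and 563 lower (14%). Of the calls above, 393 of the higher and 474 of the lower kept their call and direction. Without the short lists of 0 h replicates 1 and 3, 145 genes were higher and 200 lower, of which 144 and 183 were among the main calls. Without 0 h replicate 1 alone there were 432 higher and 354 lower genes, and without 0 h replicate 3 alone 458 and 381.

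The gene with the second largest rise among those named was Lmna, which encodes the lamins A and C of the nuclear envelope (chromosome 3, 88481148 to 88509932, mm10). Its strongest peak held places 32, 30 and 19 at 24 h, against places 1809 and 863 in replicates 1 and 2 at 0 h and no peak in replicate 3. The groups did not overlap, and the score difference was 5.80 ± 0.49 (SE; limma adjusted p = 2.4e-07). The other marks differed at the same gene. H3K27me3 peaks touched Lmna in 4 of 4 libraries at 24 h and in 0 of 4 at 0 h, whereas H3K27ac peaks touched it in 0 of 3 at 24 h and 3 of 3 at 0 h.

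Several transcription factor genes that act in other tissues moved up. Pax2, a regulator of kidney and eye development (chromosome 19, 44746601 to 44838269), held places 204, 95 and 70 at 24 h and lay outside the 1999 strongest peaks in all 3 libraries at 0 h. Its score rose by 4.18 ± 0.39 (limma adjusted p = 5.98e-07), and its strongest deposited 0 h peak was at place 2471 of replicate 2. Dmrta2, a DM-domain factor of the developing forebrain, held places 295, 188 and 277 at 24 h and was outside in all 3 libraries at 0 h, a rise of 3.01 ± 0.31 (limma adjusted p = 1.92e-06). Prdm12, a PR-domain factor of pain-sensing neurons, held places 188, 110 and 281 at 24 h, against place 1194 in replicate 2 at 0 h and no place in the other replicates. Tead3, a DNA-binding partner of the YAP co-activator, held places 93, 120 and 165 at 24 h and none at 0 h (4.03 ± 0.54, limma adjusted p = 3.8e-05). All of these genes carried H3K27me3 peaks in 4 of 4 libraries at both times, so at these loci the other Polycomb mark was present before and after CpG.

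Egr3 and Socs3, genes of lymphocyte activation and cytokine feedback, moved up and had no H3K27me3 peak. Egr3, an immediate-early zinc-finger factor of antigen receptor signalling (chromosome 14, 70077317 to 70082613), held places 241, 123 and 120 at 24 h and lay outside the strongest peaks in all 3 libraries at 0 h. It rose by 3.71 ± 0.38 (limma adjusted p = 1.77e-06), with H3K27ac peaks in 3 of 3 libraries at both times and no H3K27me3 peak in any of the 8. Socs3, an inhibitor of cytokine receptor signalling, held places 65, 221 and 41 at 24 h, against place 1570 in replicate 3 at 0 h and none in replicates 1 and 2. Its score rose by 4.46 ± 0.54 (limma adjusted p = 1.23e-05), and it too had H3K27ac in all 6 libraries and H3K27me3 in none.

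The other genes of the 15 with the smallest p among those higher were of mixed function. Enpp5 and Enpp4, neighbouring genes of an ectonucleotidase family, shared a peak at places 67, 100 and 110 at 24 h, while at 0 h Enpp4 kept places 1120, 1155 and 1120 and Enpp5 none. Rgs10, which switches off G protein signals, held places 167, 140 and 86 at 24 h and 996, 1103 and 1178 at 0 h. Kcnj4, an inward-rectifier potassium channel, held places 437, 431 and 459 at 24 h, against 1791 in replicate 2 at 0 h and none in the others. Tulp1, a photoreceptor gene next to Tead3, shared its peak at 24 h. Lemd1, Gm21188 and the long non-coding Gm52861 completed the 15, with rises of 3.33, 6.63 and 2.88.

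Among the 15 lower genes with the smallest p, several had no place among the strongest peaks at 24 h. Htr1f, a serotonin receptor gene (chromosome 16, 64924729 to 65105784), was outside the 1999 strongest peaks in all 3 libraries at 24 h and held places 142, 158 and 160 at 0 h. Its score fell by 3.71 on the log2 scale (SE 0.22; limma adjusted p = 3.19e-09), and its deposited peaks at 24 h were at places 3133, 8286 and 6401. Rgs13, a brake on chemokine receptor signalling known from germinal centre B cells (chromosome 1, 144137386 to 144177372), was likewise outside at 24 h and held places 46, 54 and 62 at 0 h. It fell by 5.22 (SE 0.37; limma adjusted p = 3.5e-08), and H3K27me3 peaks touched it in 2 of 4 libraries at 24 h and in 4 of 4 at 0 h. Both genes thus kept a weaker deposited H2AK119Ub peak after stimulation.

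Vmn2r27, a vomeronasal receptor gene, was outside at 24 h and held places 44, 113 and 42 at 0 h and fell by 5.08 (SE 0.44; limma adjusted p = 2.87e-07). Anln, which encodes the cytokinesis protein anillin, was outside at 24 h and held places 238, 250 and 218 at 0 h, and Dclre1a, a nuclease of DNA crosslink repair, was outside at 24 h and held 244, 180 and 216 at 0 h. Slc22a28, of an organic anion transporter family, was outside at 24 h and held 91, 76 and 72 at 0 h. Other genes of the 15 were Gm39596, Gm45988, Nme8, Gm33074, A930001A20Rik, Tmem38b, Scfd2 and Bfsp1, which fell by 6.25, 2.55, 2.85, 2.31, 3.73, 2.40, 1.60 and 1.90.

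**Figure D1:**
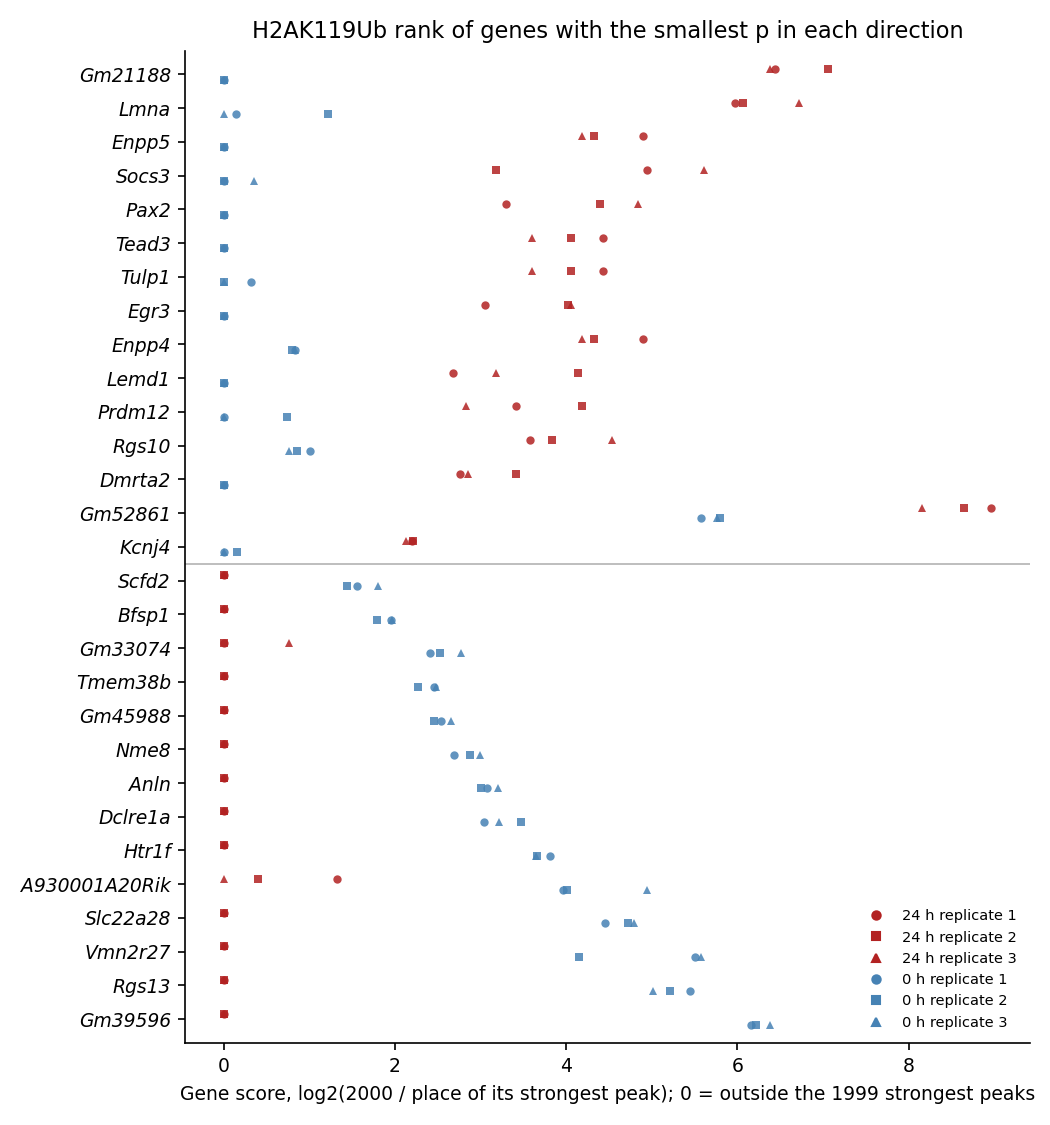
Gene scores (x axis, log2 of 2000 over the place of the gene's strongest peak, 0 where outside the 1999 strongest) of genes among the 15 higher and 15 lower with the smallest p, 1 marker per library, 24 h and 0 h in different colours. Most lower genes stand at 0 in all 3 libraries at 24 h, whereas Lmna stands near 6.25 on average at 24 h and near 0.45 at 0 h.

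The promoters below show what lay under peaks that were among the 1999 strongest in all 3 libraries of one time and none of the other. They were read from the RefSeq promoter table of GRCm38.p6 (250 bases before to 50 after a start, 5′ to 3′ on the gene's strand), in which 25 of the 30 genes had an entry. Capitals mark the dinucleotide CG, the core of a CpG island, counted on the printed strand and the same on the other. The first 3 were under strong peaks at 24 h alone.
Pax2 promoter, chr19:44756656-44756955, plus strand: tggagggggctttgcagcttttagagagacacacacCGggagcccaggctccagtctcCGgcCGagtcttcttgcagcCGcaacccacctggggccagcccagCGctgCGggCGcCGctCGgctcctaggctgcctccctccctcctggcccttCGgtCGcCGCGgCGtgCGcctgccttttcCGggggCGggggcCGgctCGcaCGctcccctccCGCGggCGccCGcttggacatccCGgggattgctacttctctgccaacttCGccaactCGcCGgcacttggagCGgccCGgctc
Dmrta2 promoter, chr4:109977775-109978074, plus strand: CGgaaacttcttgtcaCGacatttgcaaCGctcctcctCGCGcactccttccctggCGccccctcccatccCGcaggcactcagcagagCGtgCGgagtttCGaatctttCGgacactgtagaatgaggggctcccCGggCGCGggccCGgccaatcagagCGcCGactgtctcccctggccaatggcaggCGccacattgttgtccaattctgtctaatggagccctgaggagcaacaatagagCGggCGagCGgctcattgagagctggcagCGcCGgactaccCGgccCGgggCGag
Tead3 promoter, chr17:28350297-28350596, minus strand: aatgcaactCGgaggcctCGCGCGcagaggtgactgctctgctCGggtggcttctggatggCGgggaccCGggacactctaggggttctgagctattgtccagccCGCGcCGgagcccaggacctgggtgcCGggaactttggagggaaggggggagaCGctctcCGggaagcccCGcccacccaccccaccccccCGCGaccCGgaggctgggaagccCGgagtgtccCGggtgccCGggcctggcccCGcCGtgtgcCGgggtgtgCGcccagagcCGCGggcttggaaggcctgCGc
The next 2 were under strong peaks at 0 h alone.
Rgs13 promoter, chr1:144177323-144177622, minus strand: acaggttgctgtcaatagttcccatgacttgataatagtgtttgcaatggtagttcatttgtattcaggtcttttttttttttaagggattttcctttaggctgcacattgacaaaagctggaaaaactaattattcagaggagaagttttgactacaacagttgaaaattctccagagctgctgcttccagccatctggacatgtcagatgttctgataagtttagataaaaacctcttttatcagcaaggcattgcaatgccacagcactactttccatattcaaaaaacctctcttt
Vmn2r27 promoter, chr6:124231735-124232034, minus strand: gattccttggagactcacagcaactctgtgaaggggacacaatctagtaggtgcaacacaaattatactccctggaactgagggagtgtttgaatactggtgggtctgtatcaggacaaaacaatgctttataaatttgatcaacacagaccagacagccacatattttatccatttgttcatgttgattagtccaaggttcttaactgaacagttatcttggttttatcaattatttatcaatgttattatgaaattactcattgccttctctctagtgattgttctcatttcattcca
The printed Pax2, Dmrta2 and Tead3 promoters held 30, 26 and 27 CG dinucleotides, and those of Rgs13 and Vmn2r27 held 0 each. Pax2 and Tead3 had other promoters that met the same rule and are not printed. Those of Pax2 held 7 and 23, and those of Tead3 held 34 and 25. Also not printed were a promoter of Lemd1, under strong peaks at 24 h alone, which held 15, and that of A930001A20Rik, under strong peaks at 0 h alone, which held 1. Of all 32851 promoters of the table, 94.6% held at least 1, with a median of 7. The promoter of Anln held 30 but lay outside the strongest peaks at both times, so it falls on neither side of this division. The contrast is one between these 5 sequences and not one between all genes that moved. Over the called genes with an entry the median was 16 among the higher and 18 among the lower, against 17 over all tested. An entry existed for 72.1% of the higher, 81.7% of the lower and 76.2% of all tested genes. The contrast of the printed sequences thus did not appear in these medians, which were not tested against each other.

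The called genes differed in what else marked them. An H3K27me3 peak in 4 or more of the 8 H3K27me3 libraries touched 69.5% of the higher genes and 87.4% of the lower genes, against 76.9% of all tested genes. An H3K27ac peak in 3 or more of the 6 H3K27ac libraries touched 27.9% of the higher and 21.1% of the lower genes, against 21.5% of all tested. Of 483 tested genes with no H3K27me3 peak in any of the 8 libraries, 135 were higher (28.0%) and 21 were lower (4.35%). Of 2105 genes with H3K27me3 in all 8, 337 were higher (16%) and 284 lower (13.5%). Of 70 genes that had H3K27me3 in 4 of 4 libraries at 24 h and in 0 of 4 at 0 h, 19 were higher (27.1%) and 1 was lower (1.43%). Calls were thus mostly upward both in the genes without H3K27me3 and in those that had it at 24 h alone, and near balance in the genes with it in all 8 libraries. The median differences in that order were 0.69, 0.94 and 0.16, beside 0.22 over all tested genes. With quantile-normalised scores the split over all tested genes was 393 higher and 563 lower, and it is not given here by class. Among 366 genes with H3K27ac in all 6 libraries, 91 were higher (24.9%) and 31 lower (8.47%), and among 2713 genes with none, 431 were higher (15.9%) and 331 lower (12.2%). Higher genes were also shorter, with a median of 9.24 kb against 32.1 kb for lower genes and 15.3 kb for all tested. Length moved with the calls in this way, and its part in them was not tested.

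The same division appeared in the bases under the peaks. Of the bases under the 2169 strongest peaks, 7.74, 6.71 and 9.98% lay in H3K27ac regions at 24 h and 3.08, 2.72 and 3.45% at 0 h. The groups did not overlap, and the means were 8.14 ± 1.67% at 24 h and 3.09 ± 0.37% at 0 h (SD, n = 3 each), a difference of 5.06 ± 0.99 percentage points (SE; exact two-sided permutation p = 0.1, the smallest possible). The H3K27ac regions themselves differ between the times, so each set was also used alone. Regions of 24 h cells (94.7 Mb) held 8.63 ± 1.72% of the peak bases at 24 h and 3.73 ± 0.41% at 0 h. Regions of 0 h cells (66.6 Mb) held 6.42 ± 1.37% at 24 h and 1.77 ± 0.23% at 0 h, so the higher share at 24 h did not depend on which acetylation map was used. For H3K27me3 the shares were 58.9, 67.3 and 54.8% at 24 h and 67.0, 66.2 and 66.4% at 0 h. These overlapped, with a difference of −6.19 ± 3.69 percentage points (exact two-sided permutation p = 0.4). The difference was −9.68 without 24 h replicate 2 and −3.41 without 24 h replicate 3 (exact two-sided permutation p = 0.1 and 0.4), −18.7 with deposited lists (p = 0.4) and −8.90 with H3K27me3 regions of at least 1 library (p = 0.1).

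Further down the lists the proportions shifted in each library that reached that far. In 24 h replicate 1, H3K27ac regions held 7.68, 12.1, 13.9 and 13.4% of the bases under peaks 1 to 2000, 2001 to 5000, 5001 to 10000 and 10001 to 14000, and H3K27me3 regions held 59.5, 37.3, 25.1 and 18.7%. In 0 h replicate 2, the one long list of naive cells, the H3K27ac values in the same classes were 2.71, 4.31, 6.35 and 7.60% and the H3K27me3 values 66.9, 40.8, 26.2 and 19.4%. Strong H2AK119Ub peaks thus lay mainly over H3K27me3 at both times, and the share over acetylated chromatin was about as high in the strongest class of 24 h replicate 1 as in the weakest of these classes of the naive library.

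**Figure D2:**
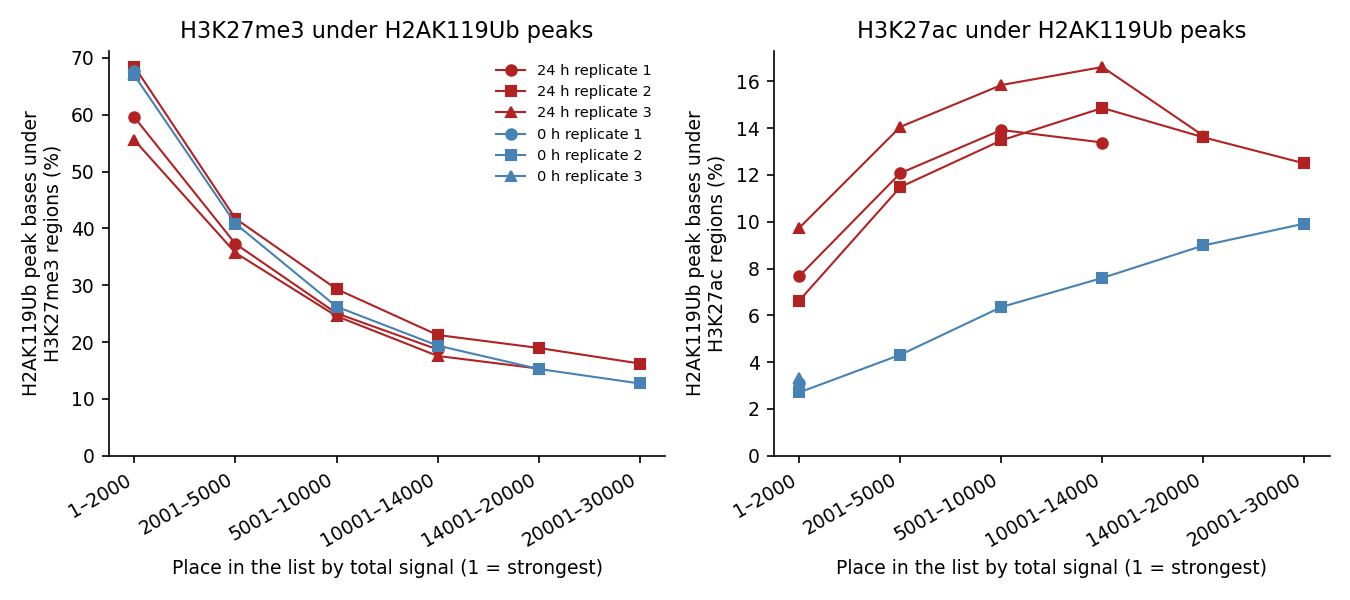
Percent of H2AK119Ub peak bases under H3K27me3 regions and under H3K27ac regions (y axes, from 0) by place in the list (x axis, classes by total signal), 1 line per library, 24 h and 0 h in different colours. The H3K27ac lines of 24 h start between 6.63 and 9.74% and those of 0 h between 2.71 and 3.32%, while the H3K27me3 lines of both times fall with place.

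Merged over the 6 libraries, the 2169 strongest peaks made 4093 regions. Of these, 693 were found in all 6 libraries, 285 in all 3 at 24 h and none at 0 h, 414 in all 3 at 0 h and none at 24 h, and 1285 in 1 library alone. The regions common to all libraries were broad, with a median of 33723 bp, and 73.0% of their bases lay under H3K27me3 and 3.39% under H3K27ac. The regions found at 24 h alone had 36.9% under H3K27me3 and 15.6% under H3K27ac, and held 51.1 protein-coding genes per Mb. The regions found at 0 h alone had 42.1% under H3K27me3, 3.67% under H3K27ac and 26.0 genes per Mb. The bases shared by any pair of libraries, as a percentage of those covered in either, were 42.2 to 48.4% within 24 h, 55.3 to 57.0% within 0 h and 26.3 to 31.7% between the times. Replicates of a time were therefore more alike than libraries of different times, and the naive libraries most alike in spite of their list lengths.

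Of 41 B cell activation genes 13 were tested, of which 7 were higher (against 17.2% of all tested) and 0 lower (against 12.3%), with a median difference of 1.40 beside 0.22 over all tested genes. With quantile-normalised scores 6 were higher and 1 lower. Tested members are those with a strong peak in at least 6 of 24 libraries, so the counts and the median do not describe the list. Egr3 had no strong peak at 0 h, so its score could not fall. Fosb, an AP-1 subunit gene, held places 116, 85 and 81 at 24 h, against 1281 and 1375 in replicates 1 and 3 at 0 h and none in replicate 2 (4.04 ± 0.67, limma adjusted p = 0.0003). H3K27me3 peaks touched it in 4 of 4 libraries at 24 h and 0 of 4 at 0 h, and H3K27ac in none. Bcl2l1, which encodes the survival protein BCL-XL, held places 90, 392 and 80 at 24 h and places 1893 and 1183 in replicates 1 and 2 at 0 h (3.54 ± 1.04, limma adjusted p = 0.016). Its call was lost without 0 h replicate 1 (adjusted p = 0.0508), 0 h replicate 3 (0.0510), 24 h replicate 1 (0.0551) or 24 h replicate 3 (0.0635). The list's other called genes named by the rule were Egr3 and Socs3, described above. Nfkb2, an NF-κB subunit gene, Fos, the partner of Jun in AP-1, and Nr4a1, an orphan nuclear receptor gene, were also higher and are named after their values were seen. Nfkb2 rose by 2.59 (limma adjusted p = 0.0016), Fos by 2.28 (0.013) and Nr4a1 by 1.40 (0.047, or 0.082 with quantile-normalised scores). Fos lost its call without 0 h replicate 3 (0.0576), and Nr4a1 without any 1 of the libraries other than 24 h replicate 2 (0.0951 to 0.259), with a difference of 0.81 without 24 h replicate 3. Without both short 0 h lists, which leaves 1 library at 0 h, the differences were 2.48 for Nfkb2 and 1.45 for Fos. They were 1.40 for Nr4a1 and 3.07 for Bcl2l1.

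Of 33 genes of follicular and mature B cells 4 were tested, of which 3 were higher (against 17.2% of all tested) and 0 lower (against 12.3%). With so few past the filter, these counts do not describe the list. Spib and Cd37 had no strong peak at 0 h, so their scores could not fall. With quantile-normalised scores 2 were higher and 0 lower. Spib, an ETS factor gene of B cells, held places 1178, 583 and 693 at 24 h and none at 0 h (1.36 ± 0.35, limma adjusted p = 0.0070). Pou2f2, which encodes the octamer factor OCT2, held 490, 938 and 619 at 24 h and 1346, 1816 and 1134 at 0 h (1.09 ± 0.32, limma adjusted p = 0.015). Its adjusted p was 0.17 with quantile-normalised scores, 0.0692 without 0 h replicate 2 and 0.0711 without 24 h replicate 1. Cd37, a tetraspanin gene of mature B cells, was uneven between replicates, at places 1788, 782 and 38 at 24 h and none at 0 h (2.41 ± 0.80, limma adjusted p = 0.030), and lost its call without 0 h replicate 1, 2 or 3 (0.0727, 0.0662 and 0.0703). Without 24 h replicate 3 the Cd37 difference was 0.76, and without both short 0 h lists the adjusted p of Spib was 0.127. All 3 genes had H3K27ac peaks in 3 of 3 libraries at both times. Ebf2, the fourth tested, is on the list but is not an established B cell gene, and it differed by 0.29 (limma adjusted p = 0.35).

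Genes of the plasma cell and germinal centre programme and of the cell cycle had 13 tested members in 3 lists, of which 2 were higher and 1 was lower, beside 17.2% and 12.3% of all tested genes. Rgs13 was the plasma cell or germinal centre gene called, lower, of 4 tested. Prdm1, which encodes the plasma cell regulator BLIMP-1, held places 462, 262 and 480 at 24 h and 388, 441 and 390 at 0 h, a difference of 0.07 ± 0.37 (limma adjusted p = 0.92). Bcl6, the germinal centre repressor gene, differed by −0.14 (limma adjusted p = 0.77). Of the cell cycle inhibitors, 1 of 5 tested was called. Cdkn1a, which encodes p21, held places 169, 423 and 166 at 24 h, against 413 in replicate 1 at 0 h and none in replicates 2 and 3 (2.37 ± 0.59, limma adjusted p = 0.0056). Cdkn2a, the INK4A and ARF locus and a classical Polycomb target, held 37, 28 and 39 at 24 h and 38, 37 and 38 at 0 h, a difference of 0.13 ± 0.22 (limma adjusted p = 0.67). Among 4 cell cycle and ribosome biogenesis genes tested 1 was higher, the cyclin-dependent kinase gene Cdk4 (1.43 ± 0.44, limma adjusted p = 0.022; 0.10 with quantile-normalised scores). Its call was lost without any 1 of 0 h replicates 1, 2 and 3 and 24 h replicates 2 and 3 (0.0511 to 0.0873). Of the Toll-like receptor pathway genes 1 of 18 was tested, Irf7, an interferon regulator (0.95, limma adjusted p = 0.37).

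Many genes central to B cell stimulation had too few strong H2AK119Ub peaks to be tested. Tlr9, the CpG receptor gene, had deposited peaks at places 7185, 6743 and 4200 at 24 h and at 32685 in 0 h replicate 2. Myc had them at 8472, 7424 and 4442 at 24 h and 6772 in 0 h replicate 2, and Pax5, the B cell identity factor gene, at 4287, 16970 and 3299 at 24 h and 6292 in 0 h replicate 2. Irf4, a factor of activated B cells, stood at 2658, 8558 and 1628 at 24 h and 20681 in 0 h replicate 2. The 2 short lists at 0 h did not reach most of these places. Egr1, an immediate-early factor gene, had deposited peaks at 14198 and 18038 in 24 h replicates 2 and 3 and at 32559 in 0 h replicate 2, and the early activation marker gene Cd69 had none in any of the 6 lists.

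Developmental regulators, the classical targets of Polycomb, were called mostly upward outside the Hox clusters. Of 37 tested 13 were higher (against 17.2% of all tested) and 1 lower (against 12.3%), with a median of 0.96. With quantile-normalised scores 10 were higher and 2 lower, beside 9.78% and 14% of all tested. Besides Pax2, Gata4, a heart and endoderm factor gene, held places 85, 42 and 84 at 24 h and 1572, 405 and 1185 at 0 h (3.77 ± 0.59, limma adjusted p = 0.00016). Barhl2, a homeobox gene of the retina and forebrain, held 168, 116 and 157 at 24 h, against 605 and 642 in replicates 2 and 3 at 0 h and none in replicate 1 (2.66 ± 0.39, limma adjusted p = 7.43e-05). Olig2, an oligodendrocyte and motor neuron factor gene, held 238, 207 and 340 at 24 h and 1801, 1571 and 1176 at 0 h (2.54 ± 0.44, limma adjusted p = 0.0004). The one lower gene was Lhx9, a LIM-homeobox gene, which is named after its values were seen. It held places 76, 44 and 52 at 24 h and 16, 13 and 22 at 0 h and fell by 1.75 (limma adjusted p = 3.8e-05; −0.92 and 0.083 with trimming by highest signal). All of these genes had strong peaks at both times or H3K27me3 in all 8 libraries, so the changes are ones of order among marked genes.

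The 39 Hox genes lay in 12 peak sets, and all were tested, 4 higher and 6 lower (1 and 7 with quantile-normalised scores). The 6 lower genes were Hoxa3, Hoxa6, Hoxa7, Hoxa9, Hoxa10 and Hoxa11, named after their values were seen, which share 1 peak at places 6, 20 and 8 at 24 h and 4, 4 and 5 at 0 h. Its score fell by 1.19 (limma adjusted p = 0.047), and 24 h replicate 2 carried much of this, since the Hoxa3 difference was −0.69 without that library (0.246). The call was lost without any 1 of the libraries other than 24 h replicate 1 (0.0590 to 0.246). Hoxb13 held 49, 37 and 44 at 24 h and 140, 116 and 131 at 0 h (1.58 ± 0.38, limma adjusted p = 0.0049, or 0.081 with quantile-normalised scores). Hoxd1 was at places 10 and 11 in 24 h replicates 1 and 3 and outside in replicate 2 and at 0 h (5.05 ± 1.73, limma adjusted p = 0.035). Its call was lost without any 1 of the libraries other than 24 h replicate 2 (0.076 to 0.154). Hoxd4 differed by 5.27 ± 2.3 (limma adjusted p = 0.091), with peaks at 10, 14 and 11 at 24 h and at 22 in 0 h replicate 1 alone. The strong peak of the Hoxd cluster thus covered these genes in some libraries and not in others. Without both short 0 h lists the adjusted p was 0.141 for Hoxb13.

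Among genes of the Polycomb complexes themselves, 3 of 12 tested were higher (against 17.2% of all tested) and 0 lower (against 12.3%). With quantile-normalised scores 1 was higher and 0 lower, beside 9.78% and 14% of all tested. Phf1, a PRC2 partner that binds methylated H3K36, held places 1214, 872 and 549 at 24 h, against 1573 in replicate 2 at 0 h and none in the others (1.15 ± 0.27, limma adjusted p = 0.0038; 0.176 without both short 0 h lists). Pcgf1, the subunit that defines one variant PRC1, held 77, 50 and 74 at 24 h and 152, 300 and 136 at 0 h (1.48 ± 0.50, limma adjusted p = 0.033; 0.15 with quantile-normalised scores). Its call was lost without 0 h replicate 1 or 2 or without any 1 of the 24 h libraries (0.0508 to 0.141). Kdm2b, the CpG island reader of that complex, rose by 0.99 (limma adjusted p = 0.047; 0.11 with quantile-normalised scores) and is named after its values were seen. It lost its call without any 1 of the libraries other than 24 h replicate 2 (0.0573 to 0.314), and its difference was 0.37 without 24 h replicate 3. Epop, a PRC2-associated protein gene, differed by 2.33 ± 0.97 (limma adjusted p = 0.078).

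Genes of other blood lineages moved in either direction. Of 6 T cell genes tested 2 were higher and 1 lower. Tbx21, the gene of the T-bet factor that CpG-stimulated B cells also use, held places 364, 59 and 73 at 24 h, against 1387 and 1973 in replicates 1 and 3 at 0 h and none in replicate 2 (3.92 ± 0.84, limma adjusted p = 0.0022). Cd4 held 422, 668 and 304 at 24 h and 1780 in 0 h replicate 3 alone (2.13 ± 0.51, limma adjusted p = 0.0048). Il7r, the interleukin 7 receptor gene of lymphoid precursors, held 1822 in 24 h replicate 1 alone, against 211, 623 and 193 at 0 h, and fell by 2.72 (SE 0.51; limma adjusted p = 0.00073). At Il7r, H3K27ac peaks were found in 3 of 3 libraries at 24 h and 0 of 3 at 0 h. Without both short 0 h lists the adjusted p was 0.054 for Tbx21, 0.091 for Cd4 and 0.147 for Il7r.

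Of 5 myeloid genes tested 2 were higher and 1 lower. Cebpb, a C/EBP factor gene, held places 277, 475 and 129 at 24 h and none at 0 h (2.96 ± 0.65, limma adjusted p = 0.0026; 0.073 without both short 0 h lists). Adgre1, which encodes the macrophage marker F4/80, held none at 24 h and 465, 437 and 337 at 0 h and fell by 2.29 (SE 0.43; limma adjusted p = 0.00076). Elane, the neutrophil elastase gene, rose by 1.50 (limma adjusted p = 0.045) and lost its call without any 1 of the 6 libraries (0.0666 to 0.114). Of 4 erythroid genes tested, Epor, the erythropoietin receptor gene, was higher (1.06, limma adjusted p = 0.026), and the β-globin genes Hbb-bs and Hbb-bt, which share a peak, fell by 1.54 (limma adjusted p = 0.012 and 0.0082). The globin calls were lost without 0 h replicate 1 (0.0826 and 0.0627), and that of Epor without 0 h replicate 1, 2 or 3 or 24 h replicate 1 (0.0586 to 0.102). With quantile-normalised scores 2 T cell genes were higher and 1 lower, 1 myeloid gene higher and 1 lower, and 0 erythroid genes higher and 2 lower. The 1 NK gene tested, Eomes, differed by 0.84 (limma adjusted p = 0.11).

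Other lists had few tested members. Of 4 imprinted genes tested, Mest, a gene expressed from the paternal allele, held no place at 24 h and 771, 731 and 970 at 0 h and fell by 1.29 (SE 0.31; limma adjusted p = 0.0049; 0.062 without both short 0 h lists). Of 4 replication-dependent histone genes tested, H1f4 fell by 0.88 (limma adjusted p = 0.0021). H2ac7 rose by 1.93 (limma adjusted p = 0.045), with places 115, 1410 and 772 at 24 h and 1731 in 0 h replicate 3, and its call was lost without 24 h replicate 1 (0.287) or without 0 h replicate 1, 2 or 3 (0.0833 to 0.103). With quantile-normalised scores 0 histone genes were higher and 1 lower. None of 18 autosomal housekeeping genes was tested, and 1 of them had a deposited peak in all 3 libraries at 24 h and 0 in all 3 at 0 h.

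**Figure D3:**
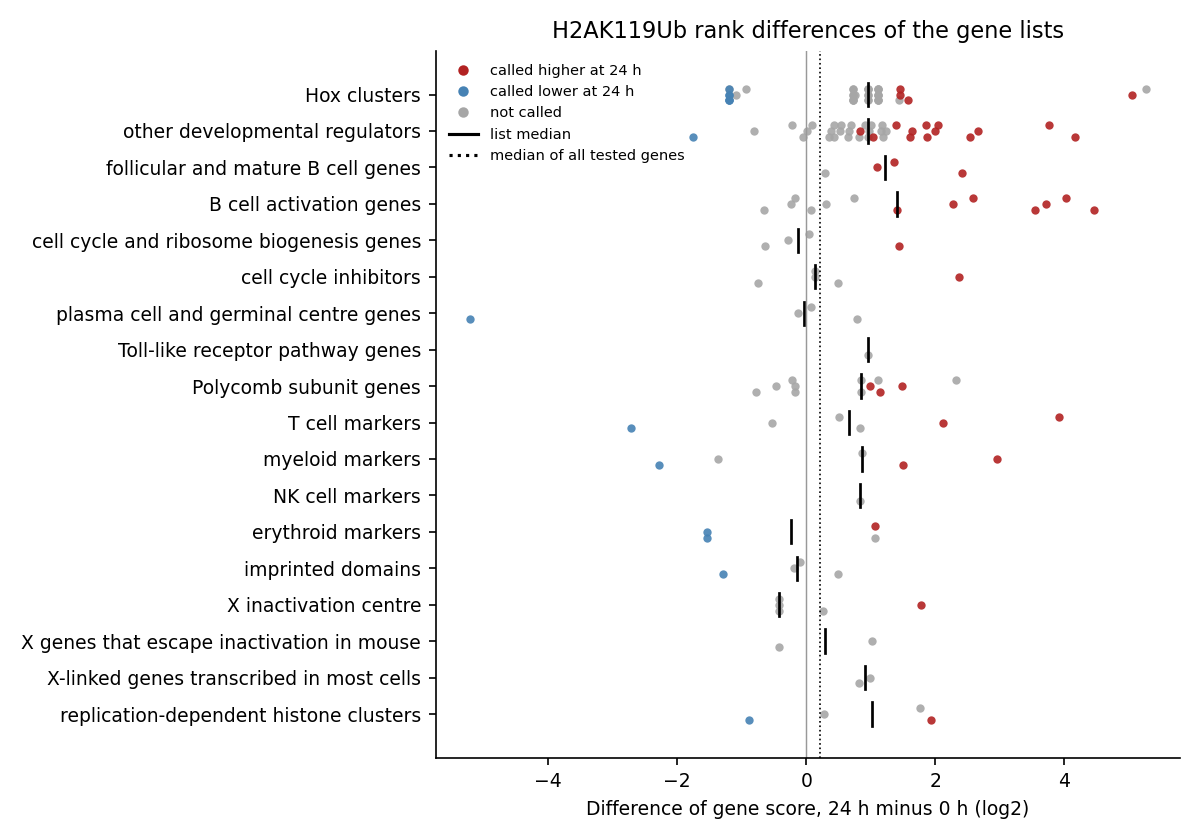
Score difference (x axis, log2, 24 h minus 0 h) of each tested gene of the lists (rows), coloured by limma call, with each list's median as a bar and the median of all tested genes as a dotted line. The B cell activation list has its median at 1.40 and the developmental list at 0.96, both to the right of the dotted line at 0.22. Only tested members are drawn, and a gene with no strong peak at 1 time could differ in 1 direction only.

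The peaks also moved between chromosomes. The share of peak bases on a chromosome was divided by its share of the genome, on a log2 scale, for the 2169 strongest peaks. In 17 of the 20 chromosomes the 3 libraries of 24 h and the 3 of 0 h did not overlap, 7 higher at 24 h (35%) and 10 lower (50%). With 3 against 3 libraries the smallest Benjamini-Hochberg value over the 20 exact tests was 0.118. Chromosome 8 stood at 0.05, 0.11 and 0.08 at 24 h and −0.64, −0.68 and −0.64 at 0 h, a difference of 0.74. Chromosome 11 stood at 1.27, 1.33 and 1.29 at 24 h and 0.58, 0.70 and 0.56 at 0 h, a difference of 0.69. The largest difference downward was that of chromosome 6, at −0.14, −0.13 and −0.11 at 24 h and 0.72, 0.54 and 0.62 at 0 h. On chromosome 11 106 of 415 tested genes were higher (25.5%) and 10 lower (2.41%), and on chromosome 8 64 of 198 were higher (32.3%) and 12 lower (6.06%). Across the 19 autosomes, whose shares within a library sum to a fixed total, the difference had a Spearman correlation of 0.58 with protein-coding gene density (Pearson 0.59). The 24 h share alone had a Spearman correlation of 0.84 with gene density and the 0 h share 0.46. With deposited lists of unequal length, 13 chromosomes did not overlap.

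**Figure D4:**
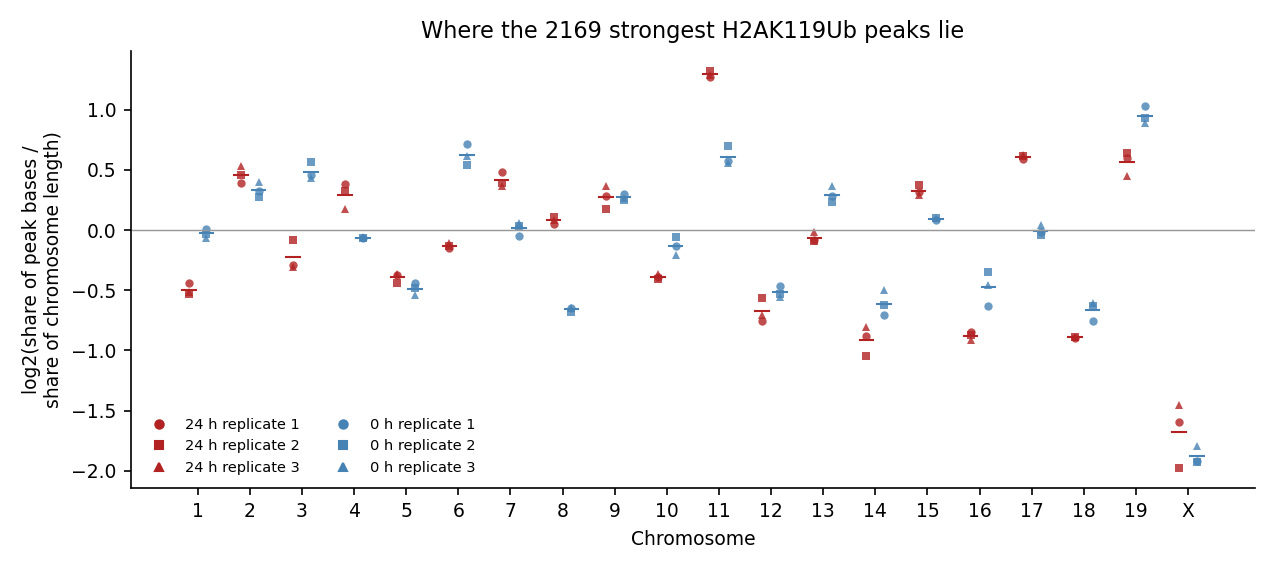
Share of peak bases over share of chromosome length (y axis, log2) for each chromosome (x axis), 1 marker per library, 24 h left of 0 h. Chromosomes 8 and 11 stand higher at 24 h and chromosome 6 lower, without overlap, while the libraries of X overlap at the bottom of the plot.

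X was the chromosome with the least of the strongest peaks for its length at either time. The X:autosome ratio (log2 of covered share) was −1.66, −2.05 and −1.51 at 24 h and −1.99, −2.0 and −1.87 at 0 h. The groups overlapped because of 24 h replicate 2, with means of −1.74 ± 0.28 at 24 h and −1.95 ± 0.07 at 0 h (SD, n = 3 each) and a difference of 0.21 ± 0.17 (SE; exact two-sided permutation p = 0.4). The difference was 0.36 without 24 h replicate 2 and 0.096 without 24 h replicate 3 (exact two-sided permutation p = 0.1 and 0.7). It was 0.96 with deposited lists, 0.63 with the 50% of peaks that had the tallest maxima in each list and −0.37 with trimming by highest signal (exact two-sided permutation p = 0.1, 0.2 and 0.1), so both its size and its direction depended on which peaks were compared. Counted by gene, 26, 18 and 24 of 963 protein-coding X genes had one of the strongest peaks at 24 h and 21, 24 and 22 at 0 h. The autosomal share was 13.4, 11.4 and 13.6% at 24 h and 9.78, 10.4 and 10.1% at 0 h. Relative to autosomal genes, the X gene share was thus lower at 24 h in all 3 libraries than in any at 0 h, with log2 values of −2.28, −2.58 and −2.42 at 24 h and −2.13, −2.03 and −2.11 at 0 h. The difference was −0.34 ± 0.09 (exact two-sided permutation p = 0.1, the smallest possible). With lists cut to 1999 peaks the groups overlapped, at −2.32, −2.57 and −2.45 at 24 h and −2.43, −2.12 and −2.03 at 0 h. The difference was then −0.25 ± 0.14 (exact two-sided permutation p = 0.2). It reversed to 0.92 with deposited lists and to 0.65 with the 50% of peaks that had the tallest maxima in each list.

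The X difference was larger further down the lists. In 24 h replicate 1 the X:autosome ratio was −1.75 among peaks 1 to 2000, −1.18 among peaks 2001 to 5000, −0.71 among 5001 to 10000 and −0.01 among 10001 to 14000. In 24 h replicate 2 the same classes gave −2.04, −1.61, −0.98 and −0.46, and in replicate 3 they gave −1.50, −1.09, −0.30 and −0.20. In 0 h replicate 2 they gave −2.02, −1.84, −1.39 and −1.35. Weaker peaks were thus more often on X in all 4 libraries, and in each class past the strongest 2000 the 3 libraries of 24 h stood above the 1 naive library that reached it. No test can be made against 1 library. The difference between the times was thus widest among X peaks of middle and low strength.

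**Figure D5:**
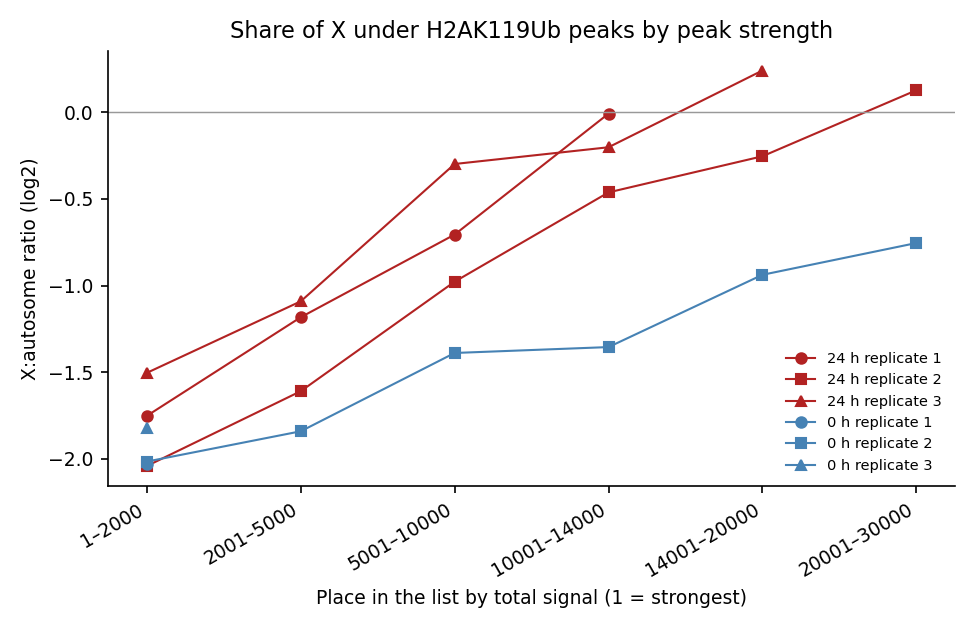
X:autosome ratio (y axis, log2) by place in the list (x axis, classes by total signal), 1 line per library, 24 h and 0 h in different colours. The 24 h lines climb to 0.13 and 0.24 in the weakest classes of replicates 2 and 3, and the single long 0 h line ends at −0.75.

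At an equal length of 14705 peaks, which all but the 2 short 0 h lists allow, the X:autosome ratio was −0.93, −1.25 and −0.76 at 24 h and −1.66 in 0 h replicate 2. Of X genes 19.8, 16.3 and 22.6% had a peak at 24 h and 12.4% in 0 h replicate 2, and of autosomal genes 43.4, 39.4 and 44.6% at 24 h and 35.2% in 0 h replicate 2. Of 98 X genes with a peak in all 3 lists of 24 h, 27 had none in 0 h replicate 2 (27.6%), and for autosomal genes these were 1525 of 6413 (23.8%). These shares were not tested against each other. In windows of 5 Mb, 13 of 35 X windows were more covered in all 3 lists of 24 h than in 0 h replicate 2 (37.1%) and 7 less (20.0%), against 25.4% and 45.7% of 503 autosomal windows. With deposited lists 10 X windows were more covered in all 3 libraries at 24 h than in any at 0 h (28.6%) and 1 less (2.86%), against 12.1% and 4.37% of autosomal windows. The window of 45 to 50 Mb was covered to 4.36, 3.30 and 5.79% at 24 h and 0.894% in 0 h replicate 2, and that of 50 to 55 Mb to 7.35, 2.46 and 6.87% at 24 h and 1.39%. The window of 110 to 115 Mb, which holds Dach2, went the other way, at 1.16, 0.121 and 0.312% at 24 h and 4.12% in 0 h replicate 2.

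Of the 4093 regions of strong peaks 80 were on X, and 11 of them were in all 6 libraries. The strongest, at 94848122 to 94917985 and touching no gene of the table, held places 8, 7 and 10 at 24 h and 13, 15 and 15 at 0 h. Bcor, which encodes a subunit of a variant PRC1, held places 145, 97 and 97 at 24 h and 237, 256 and 226 at 0 h without overlap, but its score did not pass the test over all genes (1.11 ± 0.72, limma adjusted p = 0.26). Mid1, a gene at the edge of the pseudoautosomal region, held 80, 60 and 66 at 24 h and 106, 167 and 148 at 0 h (1.02 ± 0.92, limma adjusted p = 0.42). Zfx, a zinc-finger gene that escapes X inactivation in many cells of human, held 83 and 138 in 24 h replicates 1 and 3 and 294 and 214 in 0 h replicates 2 and 3 (0.82, limma adjusted p = 0.62). Klhl15, an adaptor of the CUL3 ubiquitin ligase, held 81, 1200 and 428 at 24 h and 488, 900 and 739 at 0 h (0.99, limma adjusted p = 0.28).

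Of 31 X genes tested 1 was higher (3.23%) and 5 were lower (16.1%), beside 17.2% and 12.3% of all genes tested. The higher one was Chic1, a neighbour of Xist in the X inactivation centre, at places 966, 1214 and 171 at 24 h and 1996 in 0 h replicate 3 alone (1.77 ± 0.46, limma adjusted p = 0.0080; 0.134 without both short 0 h lists), and 0.88 without 24 h replicate 3. The largest fall was that of Dach2, a dachshund family transcription factor gene, named after its window's values were seen. It was outside at 24 h, with deposited places 6335, 14137 and 6308, and held 163, 118 and 233 at 0 h, and it fell by 3.60 (SE 0.40; limma adjusted p = 4.35e-06; −0.56 and 0.14 with trimming by highest signal). The other lower genes, also named after their values were seen, were the non-coding C430049B03Rik and Gm35988, which share a peak and fell by 1.37 (limma adjusted p = 0.0142), the ion channel gene Trpc5, which fell by 1.43 (0.0155), and Tmem255a, which fell by 0.78 (0.025). C430049B03Rik lost its call without 0 h replicate 1 (0.0508) or 24 h replicate 2 (0.0574), Trpc5 without 0 h replicate 1 (−0.82, 0.104), and Tmem255a without any 1 of 0 h replicates 1 and 3 and 24 h replicates 1 and 2 (0.0635 to 0.138). Ftx, a non-coding activator of Xist, differed by −0.43 (limma adjusted p = 0.46). Xist and Jpx, an RNA gene next to it, shared a peak at place 1417 in 0 h replicate 1, and their deposited places otherwise were 2116, 8553 and 7506 for Xist at 24 h and 2233 in 0 h replicate 2. Of the X-linked immune genes none of 29 in the table was tested. Cxcr3 had deposited peaks at 5988, 29818 and 7143 at 24 h and 25159 in 0 h replicate 2, Tlr7 at 19319 in 24 h replicate 3 alone, and Btk at 19639 in 24 h replicate 2 alone. Kdm5c, a histone demethylase gene that escapes X inactivation, had them at 9109 and 18061 in 24 h replicates 2 and 3, and Kdm6a, the H3K27 demethylase gene UTX, at 12493 and 12698 in 24 h replicates 1 and 2 and at 3623 in 0 h replicate 2.

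The CpG effect was set beside those of the other genotype and the other Cre system, whose groups share no library with it. All were taken from the same limma fit, with 1 spread per gene and 1 filter, so shared calls do not come from independent tests. In TAT-Cre WT cells 307 genes were higher (7.64%) and 354 lower (8.81%), and 219 higher and 275 lower genes were called in both. These are 31.6% of the higher and 55.8% of the lower genes of mb1-cre WT, and 71.3% and 77.7% of those of TAT-Cre WT. In mb1-cre Xist fl/fl cells 577 were higher (14.4%) and 435 lower (10.8%), of which 365 and 314 were shared, or 52.7% and 63.7% of the mb1-cre WT calls and 63.3% and 72.2% of the Xist fl/fl calls. No gene was called in opposite directions. Tests of the difference itself called 0 genes between mb1-cre WT and TAT-Cre WT (limma; 302 at an unadjusted p under 0.05, smallest adjusted p 0.062) and 2 between WT and Xist fl/fl in mb1-cre mice (170 at an unadjusted p under 0.05). The share over acetylated chromatin was higher at 24 h in all 3 pairs of groups. At 1999 peaks H3K27ac regions held 8.02% of peak bases at 24 h and 3.04% at 0 h in mb1-cre WT, 8.09% and 3.5% in mb1-cre Xist fl/fl, and 7.35% and 3.18% in TAT-Cre WT, all against the same mb1-cre WT acetylation regions. The TAT-Cre WT libraries were uneven, with 3.67 to 9.34% at 24 h (SD 3.19, n = 3) and 2.72 to 3.44% at 0 h, a difference of 4.17 ± 1.86 percentage points. Chromosome 8 differed by 0.73, chromosome 11 by 0.55 and chromosome 6 by −0.67 in TAT-Cre WT.

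At 1999 peaks the CpG effect on the X:autosome ratio was 0.19 ± 0.17 in mb1-cre WT and −0.87 ± 0.22 in mb1-cre Xist fl/fl, a difference of effects of 1.06 ± 0.28 (SE). It was 2.55 with deposited lists and 0.56 with trimming by highest signal. In TAT-Cre WT the effect was −0.37 ± 0.14, and the difference of effects was 0.56 ± 0.22, or −0.20 with deposited lists and 0.16 with trimming by highest signal. Permuting libraries between the groups within a time also mixes the groups' levels at 0 h, which differ between WT and Xist fl/fl (mb1-cre WT −1.95 ± 0.12, Xist fl/fl −2.78 ± 0.39, SD, n = 3 each), so no p is given for these differences of effects. At 14705 peaks TAT-Cre WT libraries stood at −0.85, −1.04 and −1.08 at 24 h and −1.56 and −1.63 in the 2 lists of 0 h that were long enough, which lies in the range of the mb1-cre WT libraries at 24 h and close to the mb1-cre WT list at 0 h. In mb1-cre Xist fl/fl the 1 such list at 24 h stood at −3.83 and the 2 at 0 h at −2.36 and −2.23.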

How the data were processed

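Peak lists of H2AK119Ub CUT&RUN libraries from mouse CD23+ B cells were analysed, 1 list per library. Per the submitters' processing notes, Trimmomatic 0.32, Bowtie2 2.3.4.1, Picard and deepTools 3.5.1 were used with mm10. Peaks come from SEACR in its norm and relaxed modes, going by the names of the lists. Whether it ran with a control, or with scaling to the yeast spike-in that the labels mention, was not given in the sources used here. Deposited values are total and highest signal per peak, made by the authors on a scale that may differ from library to library. Read depth is unknown, and list length differed between libraries, so ranks were used.

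Peaks on 19 autosomes and X were sorted by total signal and cut to 2169 peaks (the 6 libraries) or 1999 (24 H2AK119Ub libraries). Genes came from the RefSeq table of GRCm38.p6 (34128 genes, of which 21519 are protein-coding and 12609 lncRNA genes). A peak was given to a gene whose body, extended by 2 kb each way, it overlapped by 1 bp or more. Genes with a place among the 1999 strongest in at least 6 of 24 libraries were tested with limma 3.58.1 in R 4.3.3, with 8 groups and a Benjamini-Hochberg threshold of 0.05. Single values were tested by exact two-sided permutation of libraries, with Python 3.11.15, numpy 2.4.6, pandas 2.3.3 and matplotlib 3.10.9. H3K27me3 and H3K27ac regions are those of mb1-cre WT cells. Genes named were the 15 per direction with the smallest p (1 per set sharing a peak), 20 fixed genes, up to 4 members per list by size of difference, and genes of the most and least covered windows of X, of which a few are left out here. Tested on simulated data with 4019 genes, the procedure called 63% of genes with a change of 2, 86% with a change of 4 and 0.34% of unchanged genes for the CpG effect in mb1-cre WT. All simulated libraries had the same score distribution, noise was independent between genes, and changes were placed in genes at or above the median score. These rates therefore do not cover calls that come from the score shift between the times or from genes that share a peak. Members, lists and alternatives were chosen with earlier results of these data known. Alternatives were other trims, filters, overlaps and normalisations, and leaving out libraries. Those added after seeing the files were a quantile normalisation, the removal of short lists and of very tall peaks, and lists of equal greater length.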

Additional observations from a re-analysis of the deposited data

Results flagged for a closer look

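The test of a difference between WT and Xist fl/fl in mb1-cre mice picked out 2 genes, by limma with adjusted p under 0.05. At Dach2 WT libraries gave a CpG effect of −3.60 and Xist fl/fl libraries one of −0.18 (limma adjusted p = 0.78 in Xist fl/fl), a difference of effects of −3.42 ± 0.56 (SE, n = 3 per group; limma adjusted p = 0.031). In Xist fl/fl Dach2 was outside the 1999 strongest peaks in all 3 libraries at 24 h, and at 0 h it was outside in 2 of 3 and held place 1386 in replicate 2, so its score there had little room to fall. In TAT-Cre WT cells the effect on Dach2 was −2.62 (limma adjusted p = 0.00018). At Gm33524, a gene of the table on chromosome 14 (69999209 to 70063615) under the same strong peak as Egr3, the difference of effects was 3.40 ± 0.59 (limma adjusted p = 0.036). Its peak held places 241, 123 and 120 at 24 h and none at 0 h in WT. In Xist fl/fl it held 1282 and 1633 in 2 libraries at 24 h and none in the third, and the effect there was 0.31 (limma adjusted p = 0.61). Egr3 itself was tested and was not 1 of the 2 genes called, so the called difference is that of Gm33524 and not of Egr3.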

How the results depend on the processing

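The difference in X:autosome ratio was 0.21 and became −0.37 with trimming by highest signal and 0.96 with deposited lists. It was 0.54 and 0.67 against 0 h replicate 2 alone over the strongest 10000 and 14705 peaks. The X gene share relative to autosomal genes, −0.34 here, became 0.92 with deposited lists and 0.65 with the upper 50% by highest signal. It was −0.25 with lists cut to 1999 peaks, where the groups overlapped. The width difference (log2), 0.17, became −0.68 with deposited lists and −0.062 with trimming by highest signal. The difference of effects between mb1-cre WT and TAT-Cre WT became −0.20 with deposited lists, and 0.43 to 0.70 with libraries left out. Called genes numbered 1185, and 625 (239 higher) with trimming by highest signal, 544 (373 higher, 171 lower) with equal covered length, 345 (145 and 200) without both short 0 h lists and 444 (186 and 258) without the 4 short lists. With deposited lists 1614 were higher and 23 lower, and with quantile-normalised scores 393 were higher. These counts have unlike totals. Genes tested numbered 4019 in the main setting, 3835 with trimming by highest signal and 5087 with equal covered length. They numbered 17573 with deposited lists and 10701 without the 4 short lists, where the other lists were cut to 9273 peaks. With 1 library left out there were 786 to 1076 calls, 432 to 671 higher and 354 to 415 lower. Hoxb13 reversed to −0.23 with trimming by highest signal and Mest to 0.29 with deposited lists, as did Hoxa3 (0.58), Lhx9 (0.03), C430049B03Rik (0.24) and Tmem255a (0.37), named after their values were seen. The causes were not tested. Over 58 called genes named by the rule, 986 of 1153 gene and setting pairs kept direction and call, 165 kept direction only and 2 reversed. Called genes named after their values were seen are outside this tally, and those that reversed are listed above. With trimming by highest signal Nfkb2, Fos, Lhx9, Dach2, C430049B03Rik and Trpc5 lost their call, whereas Hoxa3, Chil3 and Lifr kept it. Same-numbered libraries were treated as unpaired, since the labels do not say whether they came from the same mice. Their deviations from the group means had correlations of 0.068, 0.051 and −0.013, which cannot settle whether they were paired. With the replicate number as a block 633 genes were higher and 426 lower, and it changed no direction of the values above. Peak lists limit these results, since 2 of the 3 lists at 0 h hold under 3000 peaks and weaker places are unseen there.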

Other observations

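The very strongest peaks, named after their values were seen, were in part loci of genes known from other tissues. Place 1 in all 6 lists was a peak on chromosome 2 that touched no gene. In 24 h replicate 1 it lay at 98666237 to 98667336. Its highest signal was 15724 to 28984, against 23 to 42 at the peak over the Hoxc cluster. A tall peak at the start of chromosome 9 held place 2 or 3. Without peaks of a highest signal over 200, 700 genes were higher and 474 lower. The Hoxc cluster was among the first 10 places at both times, at 3, 4 and 6 at 24 h and 10, 8 and 9 at 0 h, and Hoxc9 differed by 1.11 (limma adjusted p = 0.118). Chil3, a chitinase-like gene of macrophages, held places 73, 55 and 33 at 24 h and 3, 3 and 4 at 0 h and fell by 3.95 (limma adjusted p = 0.035), a call lost without any 1 of the 6 libraries (0.0568 to 0.0923). Lifr, the leukaemia inhibitory factor receptor gene, held 39, 32 and 27 at 24 h and 5, 5 and 6 at 0 h and fell by 2.60 (SE 0.51; limma adjusted p = 0.0011).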
